A study of Homo sapiens with 30 samples.

Results

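These data compare the iCLIP peaks of 2 deletion mutants of LARP6, ΔNTD and ΔLa-module, in U-87 MG cells. The authors reported that neither mutant bound RNA in cells and left both out of their later analysis. Whether the peaks below are contacts of the mutants or residual background was not tested. All iCLIP peaks deposited for ΔNTD (291) and for ΔLa-module (636) were taken as members, 927 of the 48311 peaks in the 5 lists of the series. The lists of full-length LARP6 (FL), ΔNTR and ΔCTR served only as references. The cells, U-87 MG, are a human glioblastoma cell line. A codon-optimised, N-terminally myc-tagged variant was carried by a doxycycline-inducible lentivirus in puromycin-selected stable lines, which also kept endogenous LARP6, and doxycycline was given at 60 ng/mL over 24 h to switch it on. ΔNTD lacked residues 2 to 300, which hold the disordered N-terminal region (NTR) and the La-module. ΔLa-module lacked residues 84 to 300 only, so it kept the NTR up to residue 83. Both mutants lacked the La-module and kept the C-terminal region (CTR), and the difference between them is the presence of the NTR. The comparison thus asked what the NTR contributes when the La-module is absent.

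LARP6 belongs to the La-related proteins, which bind RNA through a La-module, a La-motif joined to an RNA recognition motif. Disordered regions such as the NTR and CTR lack a fixed fold and can contact RNA as well. LARP6 is known for binding collagen mRNAs and, more broadly, many mRNAs. In iCLIP, ultraviolet light links a protein to the RNA it touches and the end of the cDNA marks the contact, so a peak is a cluster of such ends. The deposited score of a peak is the sum over 3 replicates, after peaks of parental cells without a variant were subtracted by the authors. Each mutant has 1 pooled list, so no spread between replicates and no test could be had. Values in parentheses after a count or share are 95% intervals, which cover counting error only.

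Some of the peaks called without the La-module are shown first, as examples of the classes of RNA that the results turn on. They are the highest ΔNTD peak, the tRNA sites with the highest scores, and sites on small, mitochondrial, messenger and long noncoding RNA. Coordinates are GRCh38, each sequence runs 5′ to 3′ on the strand of the peak in DNA letters, and capitals mark bases that lie in the peaks of both mutants. Names beginning with TR are tRNA genes of RefSeq, whose table gave no strand for them.
ENSG00000290790 intron, chr1:149692868-149692887, minus strand: tGCTGTTGTTTCCCCGGTGg
TRL-AAG4-1, a leucine tRNA gene, chr6:28478674-28478692, minus strand: GAGTGGTCTAAGACGCTGg
TRU-TCA1-1, the selenocysteine tRNA gene, chr19:45478637-45478666, minus strand: ctggGGTGCAGGCTTCAAACCTGTAGctgt
TRR-TCG1-1, an arginine tRNA gene, chr15:89335084-89335113, plus strand: CTAATGGATAAGGCGTCTGACTTCGGATCa
TRR-TCT4-1, an arginine tRNA gene, chr1:159141634-159141663, minus strand: agcgCGCTGGACTTCTAATCCAGAGGTtcc
RMRP, shared site, chr9:35657956-35657985, minus strand: CACTGAGGACTCTGTTCCTCCCCTTTCCGC
MT-RNR2, chrM:2594-2623, plus strand: tAGCATAATCACTTGTTCCTTAAATAGgga
DCBLD2 3'UTR, chr3:98798534-98798563, minus strand: atgatttGAAAGCTTTAAAGGAGattcttc

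In 2 further sequences capitals mark the peak of the named mutant, as no peak of the other overlapped it.
RMRP 3′ part, ΔNTD, chr9:35657807-35657836, minus strand: GGGCGTCATCCGTCAGCTCCCTCTAGTTAC
MALAT1, ΔLa-module, chr11:65499442-65499471, plus strand: AGTTTAGTTTAAAAGTTGTAGGTGATTAAA

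The input libraries of the 2 lines were alike. Total RNA gave 27792104 counts in genes for ΔNTD and 28692476 for ΔLa-module, 1 paired-end library each. Of 14457 genes with at least 1 CPM (counts scaled to library size) in either line, 1 was 2-fold apart on the log2(CPM + 1) scale (0.00692%), PLAC8, with 63 counts in ΔNTD and 18 in ΔLa-module. None of the 249 such genes with a ΔNTD peak or of the 457 with a ΔLa-module peak was 2-fold apart. Mesenchymal glioma markers were high, with VIM at 7697 and 7765 CPM and CD44 at 2336 and 2240 CPM in ΔNTD and ΔLa-module. The astroglial and stem cell markers GFAP, S100B and SOX2 had 0 to 4 counts in either library. NES, also a stem cell marker, was well counted, with 1553 and 1653 counts (56.44 and 57.75 CPM). Of 8 markers of epithelial, immune, neuronal and endothelial cells, the synaptic SYT1 was highest with 248 and 210 counts, EPCAM had 52 and 48, and CDH1 and KRT5 had 0. LARP6 itself had 1562 and 1619 counts and 1435 in parental cells, which does not check the labels because the construct was codon-optimised.

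ΔNTD had fewer peaks and lower scores than ΔLa-module. The ΔNTD list held 291 peaks (258.5 to 326.4) and the ΔLa-module list 636 (587.5 to 687.4), a ratio of 0.458 (0.397 to 0.527). The ratio was lower among peaks of higher score, with intervals that overlap. At a score above 3 the ratio was 0.338 (0.240 to 0.468), from 50 and 148 peaks. At a score of at least 6 it was 0.25 (0.112 to 0.509), from 10 and 40 peaks. Of these, 6 and 20 lay on tRNA genes, other small RNAs or mitochondrial transcripts. Only 2 ΔNTD and 4 ΔLa-module peaks of at least 6 lay in mRNA exons. Their ratio of 0.5 (0.0452 to 3.49) compares with 0.506 over all peaks in mRNA exons. Summed scores of the whole lists were 999 and 2320. A ΔNTD peak had a mean score of 3.43 (SD 1.87, n = 291 peaks) and a ΔLa-module peak 3.65 (SD 2.35, n = 636 peaks). Because a peak needed at least 3 counts to be called in a replicate, a summed score under 6 can come from only 1 replicate, if the score is in those counts. Such peaks were 281 of the 291 for ΔNTD and 596 of the 636 for ΔLa-module. The depth of the iCLIP libraries is unknown here, and neither it nor the amount of each variant can be told apart from the effect of the NTR on these numbers.

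Peaks of ΔNTD were also narrower. The minimum width of a ΔNTD peak was 17 nt, and 230 of 291 peaks (79.0%) had exactly this width, against 444 of 636 (69.8%) for ΔLa-module, a difference of 9.23 points (3.12 to 14.9). The widest peak spanned 39 nt for ΔNTD and 69 nt for ΔLa-module, the latter in MALAT1. In total the lists covered 5444 and 12786 nt.

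The transcript regions held similar shares in both lists. Coding sequence (CDS) took 85 ΔNTD peaks (29.2%) and 196 ΔLa-module peaks (30.8%), a difference of −1.61 points (−7.77 to 4.87). The 3'UTR took 79 (27.1%) and 156 (24.5%), a difference of 2.62 points (−3.31 to 8.87). Introns took 85 (29.2%) and 190 (29.9%), a difference of −0.66 points (−6.81 to 5.79). Each of these intervals includes 0, so the regions did not differ beyond counting error, although differences of several points are within reach of the intervals. Protein-coding genes held 256 of the 291 ΔNTD peaks (88.0%) and 552 of the 636 ΔLa-module peaks (86.8%), a difference of 1.18 points (−3.70 to 5.51).

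By annotated region, the peaks above the minimum score differed in place between the lists. With tRNA genes and mitochondrial transcripts set apart, the differences were smaller and their intervals included 0. Among peaks with a score above 3, introns held 19 of 50 for ΔNTD (38%, 25.9 to 51.9%) and 31 of 148 for ΔLa-module (20.9%, 15.2 to 28.2%), a difference of 17.05 points (2.92 to 32.1). CDS held 9 of 50 (18.0%) and 49 of 148 (33.1%), a difference of −15.1 points (−26.5 to −0.489). Part of these introns are tRNA genes, which the gene annotation does not list. With tRNA genes and mitochondrial transcripts counted as classes of their own, introns held 13 of 50 (26%) and 22 of 148 (14.9%), a difference of 11.1 points (−0.963 to 25.5). CDS then held 8 of 50 (16%) and 32 of 148 (21.6%), a difference of −5.62 points (−16.2 to 8.20). Both intervals include 0, but with 50 ΔNTD peaks they also include differences as large as those by annotated region.

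Of the classes of RNA, mitochondrial transcripts alone had a difference in share whose interval excluded 0. The intervals are not corrected for the number of classes, and they treat peaks on the same transcript as independent. Mitochondrial transcripts carried 9 ΔNTD peaks (3.09%) and 42 ΔLa-module peaks (6.60%), a difference of −3.51 points (−6.15 to −0.348). Nuclear tRNA genes carried 8 (2.75%) and 14 (2.20%), a difference of 0.548 points (−1.44 to 3.28), and their summed scores of 54 and 153 were 5.41 and 6.59% of the list totals. Other small RNAs, such as RMRP, U1 variants, vault RNAs and Y RNAs, carried 11 (3.78%) and 16 (2.52%), a difference of 1.26 points (−0.992 to 4.28). The shares of tRNA genes and other small RNAs thus did not differ beyond counting error. Reads that matched rRNA or tRNA were removed by the authors before alignment, so values at tRNA genes rest on the reads that remained. Near-identical copies of tRNA, U1 and mitochondrial sequence elsewhere in the genome make the copy named here uncertain.

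The mutants met at few sites. Peaks of both lists overlapped by at least 1 nt on the same strand at 29 sites, 9.97% of ΔNTD peaks (7.03 to 13.9%) and 4.56% of ΔLa-module peaks (3.19 to 6.47%). Within 100 nt, 40 ΔNTD peaks (13.7%) and 47 ΔLa-module peaks (7.39%) had a neighbour in the other list. Of the shared sites, 7 lay at tRNA genes, 6 on mitochondrial transcripts, 4 on other small RNAs, 5 in introns, 3 in 3'UTRs, 2 in 5'UTRs and 2 in CDS, by the ΔNTD peak. At 1 of the intron sites, in ENSG00000258603, with scores of 6 and 10, a run of 19 bases of the ΔNTD peak also occurs in the lysine tRNA gene TRK-TTT3-1. Sharing varied with the class of RNA. It reached 17 of 28 ΔNTD peaks (60.7%, 42.4 to 76.4%) on tRNA genes, other small RNAs and mitochondrial transcripts, and 12 of 263 (4.56%, 2.63 to 7.80%) elsewhere. For ΔLa-module it was 17 of 72 (23.6%, 15.3 to 34.6%) and 12 of 564 (2.13%, 1.22 to 3.68%). Sharing also varied with the score, as 7 of the 10 ΔNTD peaks of at least 6 and 15 of the 241 at a score of 3 (6.22%) were shared. Class and score were tied, since 6 of the 28 ΔNTD peaks in these classes and 4 of the 263 elsewhere scored at least 6, and they were not separated here. The tRNA grouping was made after the sites had been seen.

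At the shared sites the ΔNTD score was lower at 17, equal at 9 and higher at 3, and the sums were 156 and 273. Among shared sites the gap was widest at tRNA genes, where the 7 sites summed to 49 for ΔNTD and 121 for ΔLa-module. That ratio of 0.405 compares with 0.571 over all shared sites. It was close to the 0.431 for the summed scores of the whole lists. TRL-AAG4-1 scored 12 and 33, TRU-TCA1-1 6 and 28, and TRR-TCG1-1 8 and 23. TRR-TCT4-1 scored 10 in both lists. In FL these genes scored 191, 116, 137 and 61. The scores are not scaled to depth, and the FL list summed to 102788, against 999 for ΔNTD and 2320 for ΔLa-module. Raw scores thus do not show how the mutants stand to FL at a given site. The highest ΔNTD peak, in the ENSG00000290790 intron, scored 28 for ΔNTD, 24 for ΔLa-module and 267 for FL. No tRNA gene of the table lies at this site. On shared sites in mRNA exons the sums were 25 and 24, with scores between 3 and 5 at each site, such as DCBLD2 with 5 in both lists. DCBLD2 encodes a transmembrane receptor. A shared site must score at least 3 in both lists, so sites this near the minimum could show little gap. Over all peaks in mRNA exons, shared or not, the sums were 547 for ΔNTD and 1098 for ΔLa-module.

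RMRP, the RNA of the RNase MRP ribonucleoprotein, differed in where the peaks lay. ΔNTD had 3 peaks, scored 3, 4 and 15 from the 5′ to the 3′ end, and ΔLa-module had 4, scored 3, 15, 4 and 5. The ΔNTD peak of 15 lay about 196 nt from the start of the gene, where FL, ΔNTR, ΔCTR and ΔLa-module listed no peak. The nearest ΔLa-module peak, scored 5, began 4 unlisted bases away and was likewise absent from the other lists. The ΔLa-module peak of 15 lay about 60 nt from the start, where ΔNTD scored 4 and FL 73. The input level of RMRP was 413.9 CPM for ΔNTD and 695.2 CPM for ΔLa-module, a log2 difference of −0.75, the lowest among genes with a peak and a mean of at least 10 CPM. Its part in the peak scores was not tested.

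On mitochondrial transcripts the values were close on rRNA and apart on several mRNAs, though with 3 peaks against 3 the rRNA ratio of 1.0 (0.134 to 7.47) does not differ detectably from the ratio of 0.214 over all mitochondrial peaks. MT-RNR2, the large mitochondrial rRNA, carried 3 peaks in each list, with summed scores of 16 for ΔNTD and 14 for ΔLa-module. Its site printed above scored 9 and 6 and had no peak in the FL, ΔNTR or ΔCTR list. Among the messenger RNAs of the respiratory chain, MT-ND4 had 1 ΔNTD and 7 ΔLa-module peaks, MT-ND5 0 and 5, and MT-CO1 0 and 5, with summed scores of 3 and 24, 0 and 19, and 0 and 21. The mitochondrial tRNA MT-TT had no ΔNTD peak and a ΔLa-module peak of 13. Whether the rRNA and tRNA reads that the authors removed included mitochondrial ones is not known here. Values on MT-RNR2 and MT-TT may thus rest on the reads that remained. Of the 42 ΔLa-module peaks on these transcripts, 38 overlapped a peak of FL, ΔNTR or ΔCTR. Input levels of mitochondrially encoded genes had a median log2 difference (ΔNTD minus ΔLa-module) of −0.27 over 21 genes of at least 1 CPM, against 0.0082 over all genes tested, and their part in the peak numbers was not tested.

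MALAT1, an abundant nuclear long noncoding RNA, showed the widest gap of any gene. It carried 2 ΔNTD peaks, both scored 3, and 27 ΔLa-module peaks scored 3 to 12, or 0.687 and 4.25% of the lists, a difference of −3.56 points (−5.49 to −1.34). That interval does not allow for taking the gene with the widest gap, and it treats peaks of 1 RNA as independent. The ΔLa-module peaks ran from 1498 to 8139 nt from the annotated start, and the ΔNTD peaks lay at 1938 and 3086 nt. None overlapped between the lists, but the first ΔNTD peak adjoined a ΔLa-module peak of 8. FL had a peak at 13 of the 27 ΔLa-module sites and at both ΔNTD sites, whereas the ΔLa-module peak of 12 printed above had none in FL. MALAT1 gave 2503 CPM in the ΔNTD and 2893 CPM in the ΔLa-module input, a log2 difference of −0.21. Without MALAT1 the ratio of peak numbers was 0.475 (0.411 to 0.547), and without mitochondrial peaks as well 0.494 (0.426 to 0.571).

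The 2 lists also met at few genes. ΔNTD peaks lay in 262 genes and ΔLa-module peaks in 493, of 682 in either, and 73 genes had both. These were 27.9% of the ΔNTD genes (22.8 to 33.6%) and 14.8% of the ΔLa-module genes (11.9 to 18.2%). Over all genes of at least 1 CPM, 1.72% had a ΔNTD peak, 3.16% a ΔLa-module peak and 0.457% both. Only 27 of the 73 shared genes held a shared site, so most carried the 2 mutants at different places. A gene with more than 1 peak was rare, with 22 for ΔNTD and 67 for ΔLa-module. At least 3 ΔNTD peaks were found in VIM, MT-RNR2, DCBLD2 and RMRP alone, against 24 genes for ΔLa-module.

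Cytoskeletal genes were the best covered list of nuclear-encoded mRNAs. Of 30 such genes, all of at least 1 CPM, 10 had a ΔNTD peak and 14 a ΔLa-module peak, 5 of them both, against 1.72 and 3.16% over all genes. Their median input was 742.6 and 751.0 CPM, against 22.5 and 22.4 CPM over all genes of at least 1 CPM. VIM, the intermediate filament protein vimentin, had 3 peaks of 3 to 5 for ΔNTD, at 1109 to 1636 nt from the annotated start, and 12 of 3 to 6 for ΔLa-module, at 1099 to 8122 nt. PFN1, which binds monomeric actin, had a ΔNTD peak of 7 in its 3'UTR that no ΔLa-module peak overlapped, and summed scores of 10 and 11. FLNA, an actin crosslinker, had 2 ΔNTD peaks and none for ΔLa-module, while its relative FLNC had 0 and 4. ACTG1, a cytoplasmic actin, had 1 and 4. Gene by gene the direction was thus mixed, and most of these peaks were at the minimum score.

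Other lists of abundant mRNAs had larger shares of genes with a peak than the 1.72% for ΔNTD and 3.16% for ΔLa-module over all genes, in part on few peaks. Of 24 matrix and adhesion genes of at least 1 CPM, 4 had a ΔNTD peak (16.7%) and 8 a ΔLa-module peak (33.3%), among them the matrix protein fibronectin, FN1, with 2 and 3 peaks. Of 17 glycolysis genes, 4 (23.5%) and 5 (29.4%) had a peak, PGK1 with summed scores of 8 and 11. Of 11 endoplasmic reticulum chaperones, 2 (18.2%) and 5 (45.5%) had one, and HSPA5 carried a shared CDS site scored 3 in both that no other list held. Of 17 translation factors, 2 (11.8%) and 4 (23.5%) had one, with PABPC1, the poly(A)-binding protein, at 7 and 3. Of 37 hnRNP and SR genes, which act in splicing and RNA transport, 2 (5.41%) had one in each list. The median input level of the first 4 lists was 391.0 to 528.2 CPM in ΔNTD, against 22.5 CPM over all genes of at least 1 CPM.

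Collagen and ribosomal protein mRNAs had few peaks in either list. Of 19 collagen genes of at least 1 CPM, COL6A3 had 2 peaks for each mutant, scored 6 in sum for each, and COL12A1 had 1 for ΔNTD, so 10.5 and 5.26% of these genes had a peak, against 1.72 and 3.16% over all genes. Of 83 cytosolic ribosomal protein genes, RPL13 had a peak for ΔNTD, and RPS12, RPS16 and RPS24 had one for ΔLa-module, 1.20 and 3.61%, close to the shares over all genes. The FL list held peaks in 15 of the 44 annotated collagen and 50 of the 87 annotated ribosomal protein genes, and in 4873 genes in all. Of 69 histone genes, none had a ΔNTD peak and H2AZ1 had 1 for ΔLa-module. Within the LARP family, LARP1, a regulator of mRNAs for the translation machinery, had 1 peak of 3 in each list. Of 25 selected long noncoding RNAs of at least 1 CPM, 2 had a ΔNTD and 3 a ΔLa-module peak. Beside MALAT1 these were GAS5, a host of small nucleolar RNAs, with 1 and 0 peaks, SNHG29 with 0 and 1, and NEAT1, a scaffold of paraspeckles, with 0 and 2.

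The mutants did not differ detectably in how often they met FL sites. An FL peak overlapped 72 ΔNTD peaks (24.7%, 20.1 to 30.01%) and 159 ΔLa-module peaks (25%, 21.8 to 28.5%), a difference of −0.26 points (−6.05 to 5.91). By gene, 193 of 262 (73.7%) and 364 of 493 (73.8%) also had an FL peak. The FL list held peaks in 4873 genes in all, beside 14457 genes of at least 1 CPM. Genes with a ΔNTD or ΔLa-module peak had a median of 127.0 and 140.1 CPM, against 22.5 and 22.4 CPM over genes of at least 1 CPM. The FL share of genes of matched input level was not tested. Of the 29 shared sites, 26 had an FL peak. A peak of FL, ΔNTR or ΔCTR overlapped 89 ΔNTD peaks (30.6%) and 226 ΔLa-module peaks (35.5%), a difference of −4.95 points (−11.2 to 1.65). Outside the shared sites, a set chosen by the overlap itself, 62 of 262 ΔNTD peaks (23.7%) and 199 of 607 ΔLa-module peaks (32.8%) overlapped a peak of FL, ΔNTR or ΔCTR, a difference of −9.12 points (−15.2 to −2.54). Of the 29 sites left out, 27 overlapped such a peak. They are 9.97% of the ΔNTD and 4.56% of the ΔLa-module list, so leaving them out lowers the ΔNTD share more. No other list held a peak at 200 ΔNTD sites (68.7%) and 408 ΔLa-module sites (64.2%).

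Peaks of both mutants lay in abundant transcripts. The share of genes with a ΔNTD peak was 0.330% at 1 to 10 CPM, 1.20% at 10 to 100, 5.06% at 100 to 1000 and 40.8% (31 of 76 genes) at 1000 CPM or more. For ΔLa-module it was 0.521, 2.06, 10.6 and 58.4% (45 of 77). Genes with an exonic peak had a median of 175.2 CPM for ΔNTD and 213.7 CPM for ΔLa-module, and those with an intronic peak 69.96 and 79.7 CPM. Genes with an intronic peak were long, with a median of 110 kb in both lists against 29.6 kb over genes of at least 1 CPM. Genes in both lists had a median of 546.8 CPM in the ΔNTD and 602.4 CPM in the ΔLa-module input.

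The share of thymine did not differ detectably between the lists. The run TTTT lay in a smaller share of ΔNTD peaks, but it was chosen after values were seen, and its intervals do not allow for that choice. Thymine made up 28.5% of a ΔNTD peak (SD 13.7, n = 291 peaks) and 29.7% of a ΔLa-module peak (SD 14.4, n = 636 peaks), a difference of −1.20 points (−3.13 to 0.727), and 28.5% of an FL peak. The run TTTT, searched on the strand of the peak, lay in 32 of 291 ΔNTD peaks (11.0%, 7.90 to 15.1%), 109 of 636 ΔLa-module peaks (17.1%, 14.4 to 20.3%) and 17.1% of FL peaks, a difference between the mutants of −6.14 points (−10.5 to −1.20). ΔLa-module peaks were on average wider, at 20.1 nt against 18.7 nt. Read in 31 nt around the centre of each peak, TTTT lay in 16.8% and 23.0%, a difference of −6.12 points (−11.3 to −0.466). Among peaks 17 nt wide it lay in 25 of 230 (10.9%) and 74 of 444 (16.7%), a difference of −5.80 points (−10.9 to −0.137). Both readings reuse the same peaks, so they are not separate evidence.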

How the data were processed

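iCLIP of ΔNTD and ΔLa-module (3 replicates each) and 1 paired-end 150 nt input library per line were used. Single-end input was not used. The authors demultiplexed iCLIP reads with Ultraplex, trimmed them, removed rRNA and tRNA reads, aligned with STAR to GRCh38.p13 (GENCODE v42), called peaks with Clippy, merged replicates, summed scores and subtracted parental peaks with bedtools. The deposited score is that sum, not scaled to depth. Input counts per gene are as deposited from STAR. The reverse column was used, being 9.47 and 8.78 times the forward one. It held 65.6 and 63.4% of reads, and rows that name no gene were left out. Of 62750 gene identifiers, 125 did not match GENCODE v44.

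The centre of a peak set its region, taken in the order CDS, 5'UTR, 3'UTR, noncoding exon, intron, intergenic. Hardly any peak lies where genes of 1 strand overlap: 1 peak of each list touches several genes, whereas 8.06% of CDS pieces do. tRNA genes came from RefSeq. Counts were scaled by TMM (edgeR 4.0.16), with a pseudocount of 1 CPM. Intervals are exact Poisson (counts), Wilson (shares), exact binomial (ratios), Newcombe (differences of shares) and normal (base composition). PCR copies may inflate input counts, so intervals are minimum errors. Scripts were tested on simulated data. Values of 1 shared site and its gene are not reported here. Named genes were the 10 highest by summed score in each list, the 15 highest in both, genes of shared sites, genes with at least 3 peaks, members of gene lists with a peak, and genes with the extreme input differences. PLAC8, MT-TT, MALAT1 sites and the TTTT run were chosen after values were seen. Members and lists were chosen with earlier results of these data known.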

Additional observations from a re-analysis of the deposited data

How the results depend on the processing

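Of 49 alternatives over 14 results, 35 stayed within the interval of the reported value (for input counts and medians, within 1.5 times) and 14 moved. A turn of direction could not be found here. Ratios and shares cannot change sign, and each difference among these results had an interval that included 0. The differences in mitochondrial peaks, MALAT1 and TTTT were not among these results. With only scores above 3, the ratio of peak numbers was 0.338, of summed scores 0.322, of median input CPM 0.545 (102.3 and 187.6 CPM), the shared share 28.0% of ΔNTD and 9.46% of ΔLa-module peaks, the shared share of ΔNTD genes 40.9%, and the differences in intron and CDS share 17.05 and −15.1 points. At scores of at least 5 and 6 the ratio of peaks was 0.333 and 0.25. Within 100 nt, 7.39% of ΔLa-module peaks were shared. Without tRNA, other small RNA and mitochondrial peaks, 4.56% of ΔNTD and 2.13% of ΔLa-module peaks were shared. With a pseudocount of 0.5 CPM, 18 genes were 2-fold apart in the input, against 1. Apart from the choice of peaks, the cause of these moves was not tested. Of the alternatives, 7 were chosen after seeing the data, among them the score of at least 6 and those that leave out classes of RNA or MALAT1. No paired analysis was possible because replicates are merged in the peak lists and each line has 1 input library, so no replicate could be left out either.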
